A study of Homo sapiens with 12 samples.

Results

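The human mitochondrial genome encodes 37 RNAs, and all 37 had a row in the deposited count table of 63152 Ensembl genes. They were chosen as the genes of the mitochondrial chromosome whose symbol starts with MT- in GENCODE 29, looked up by Ensembl identifier. They comprised 13 mRNAs, 2 ribosomal RNAs (rRNAs) and 22 transfer RNAs (tRNAs). The cells, given as HepG2 (established from a hepatoblastoma of the liver), received no acriflavine (control), 2.5 µM acriflavine or 5 µM acriflavine and were collected after 24 h. Acriflavine combines acridine dyes, which intercalate into DNA. Each of the 3 groups had 4 libraries, called biological replicates by the labels. For all 12 libraries the sample descriptions name HepG2S1, a sorafenib-resistant subline raised by exposing HepG2 to rising doses of that kinase inhibitor, and the controls are called untreated in one place and vehicle (DMSO) in another.

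Mitochondrial DNA is a small circle whose strands, called heavy and light, are each copied into long transcripts that cover many genes. The tRNAs lie between most of the other genes, and their removal releases the rRNAs and mRNAs, which then live for different times. The rRNAs build the mitochondrial ribosome, and the mRNAs encode core subunits of respiratory complexes I, III and IV and of the ATP synthase (complex V). Of the 37 genes, 28 belong to the heavy-strand transcript (12 mRNAs, both rRNAs and 14 tRNAs) and 9 to the light-strand transcript (MT-ND6 and 8 tRNAs). The libraries were made from poly-A RNA: most mitochondrial mRNAs carry a poly-A tail, whereas the rRNAs have only short tails, MT-ND6 RNA is known to lack one, and mature tRNAs end in CCA. What such libraries capture of the rRNAs, MT-ND6 and the tRNAs may therefore differ from their cellular amounts.

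Library totals ranged from 10733567 to 15116842 counts. Values are given as CPM (read counts scaled to a common depth) on a TMM-scaled library size, and differences were tested for 16839 genes in 1 edgeR quasi-likelihood fit with Benjamini-Hochberg adjustment over all of them (adjusted p, threshold 0.05). An error after a log2 fold change is its standard error (SE), and an error after a mean is the SD over 4 libraries. Of the 15 hepatocyte markers examined, all were under 1 CPM in the controls, and albumin (ALB) and alpha-fetoprotein (AFP) had 2 counts each over the 12 libraries. In sum they ranged over 0.879 to 1.61 CPM in controls, 1.06 to 2.31 CPM with 2.5 µM and 8.75 to 11.1 CPM with 5 µM. Most of the sum at 5 µM came from TF (5.52 CPM), FGB (2.04 CPM) and APOB (1.42 CPM). Each other marker averaged under 1 CPM there, and FGG was at 0 against 0.209 CPM in controls. In controls 6 were at 0, and the part of this rise in the results below was not tested. Of 9 markers of blood, endothelial and fibroblast cells, decorin (DCN) averaged 563 CPM and lumican (LUM) 119 CPM in controls, and PECAM1 was at 0 in all libraries. CDH5, COL1A2 and COL3A1 were near 0. At 5 µM against control, 3 of the 5 tested markers of that list were higher and 2 lower, where 38.7% of all genes tested were higher and 39.4% lower. The leukocyte marker PTPRC averaged 2.27 against 0.0391 CPM, the endothelial marker VWF 1.65 against 0.139 CPM and COL1A1 30.9 against 22.6 CPM, whereas DCN and LUM were lower. That list, of which DCN and LUM make most, summed to 615 to 765 CPM in controls, 543 to 600 CPM with 2.5 µM and 546 to 586 CPM with 5 µM, and its part in the results was not tested. All levels are relative to the RNA of the library, so that fewer mitochondria per cell and less RNA per mitochondrion cannot be told apart.

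In these poly-A libraries, the CPM of all 13 mitochondrial mRNAs was lower with acriflavine at both doses, and that of both rRNAs was higher. The fall of the mRNAs was deeper at 2.5 µM than at 5 µM for all of them but MT-ND6. Whether poly-A capture of these RNAs differed between the groups was not tested. The 13 mRNAs together took 2.49%, 2.48%, 2.41% and 2.37% of counts in the 4 control libraries, 0.661%, 0.587%, 0.711% and 0.651% at 2.5 µM, and 1.12%, 1.12%, 1.01% and 0.996% at 5 µM. The 3 groups did not overlap, and the 2.5 µM libraries were the lowest. The 2 rRNAs took 1.18%, 1.04%, 1.18% and 0.872% of counts in controls, 2.63%, 1.95%, 2.51% and 2.32% at 2.5 µM, and 2.57%, 2.1%, 2.1% and 2.21% at 5 µM. Both doses lay above the controls, and the doses overlapped each other. The rRNA counts per mRNA count averaged 0.438 ± 0.056 in controls, 3.60 ± 0.274 at 2.5 µM and 2.12 ± 0.186 at 5 µM (SD, n = 4 each). The 37 genes in total took 3.51 ± 0.187% of counts in controls, 3.01 ± 0.342% at 2.5 µM and 3.31 ± 0.259% at 5 µM, and these groups overlapped.

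**Figure D1:**
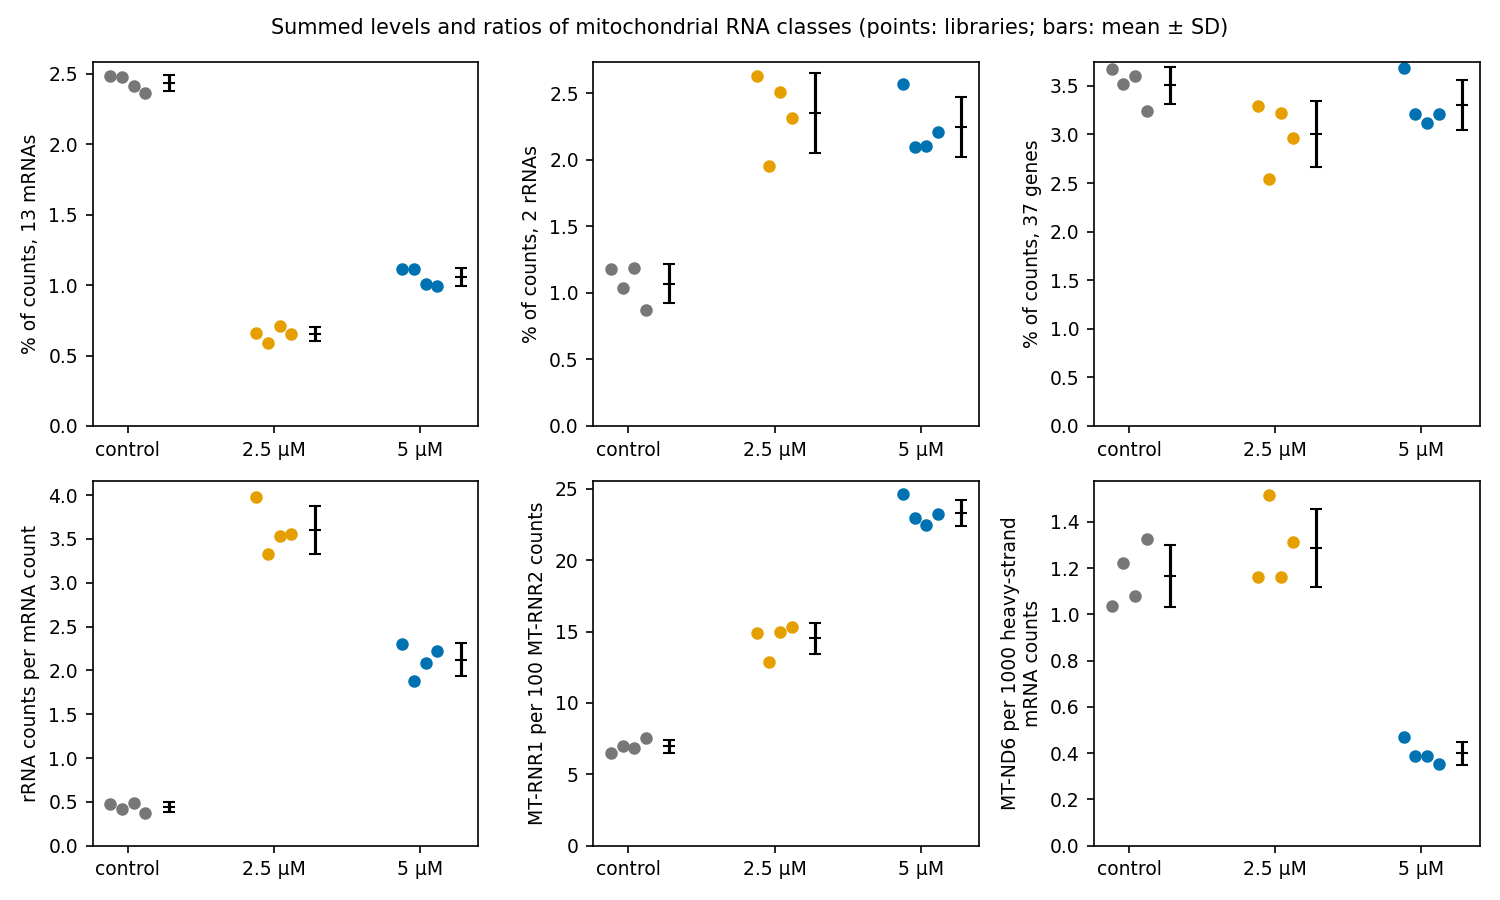
Shares of library counts (%) in the 13 mRNAs, the 2 rRNAs and all 37 genes, and 3 count ratios, in the 12 libraries by dose, with points for libraries and bars for mean ± SD (n = 4). The mRNA share is lowest at 2.5 µM, the MT-RNR1 to MT-RNR2 ratio is higher at each step of dose, and the MT-ND6 ratio is lower at 5 µM than in the other groups.

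Of the 37 genes, 17 had enough counts to be tested: the 13 mRNAs, the 2 rRNAs and the tRNAs MT-TI and MT-TM. The other 20 tRNAs did not pass the filter on low counts. The 15 mRNAs and rRNAs were above the filter level of 0.759 CPM in all 12 libraries. MT-TM was above it only in the 4 libraries at 5 µM, where it is high, and MT-TI only in those at 5 µM and the controls, so both are left out of the counts that follow. Relative to control, 2.5 µM left 13 of the 15 lower and 2 higher, where 59.1% of all genes tested passed, 28.5% as lower and 30.7% as higher. The higher dose of 5 µM also left 13 lower and 2 higher than control, where 78.2% of all genes passed, 39.4% as lower and 38.7% as higher. Between the doses, 13 of the 15 were higher at 5 µM, 1 (MT-ND6) was lower and 1 (MT-RNR2) did not pass, where 68.4% of all genes passed, 33.6% as higher and 34.8% as lower. For the 13 mRNAs the median log2 fold change was -2.0 at 2.5 µM and -1.25 at 5 µM against control, and 0.71 at 5 µM against 2.5 µM. Over all genes tested, these medians were 0.02, -0.01 and -0.01. TMM scaling itself brings them near 0, and with library size alone they were 0.064, 0.12 and 0.078. The first and second comparisons share the control libraries, and the third shares its libraries with both.

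**Figure D2:**
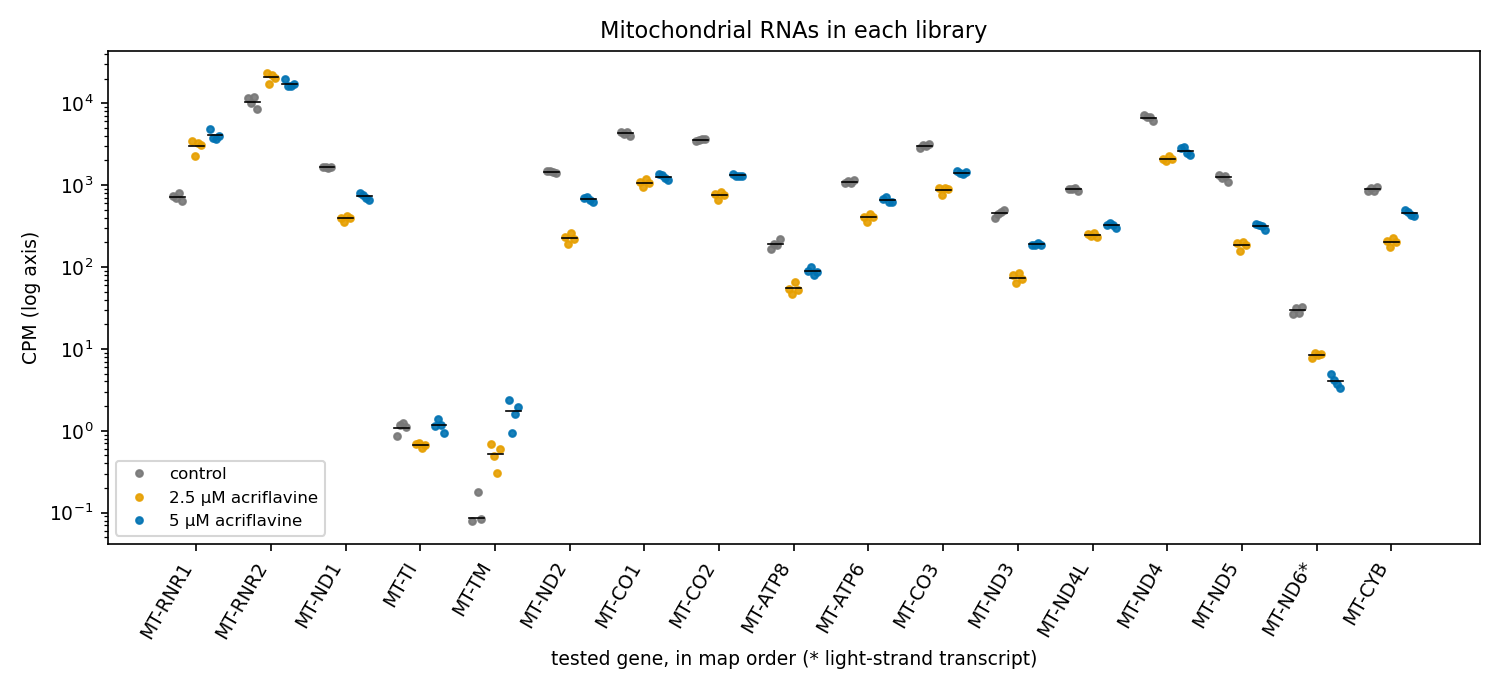
CPM (log axis) of the 17 tested mitochondrial RNAs in each of the 12 libraries, in map order, with a line at each group mean; 1 control library with 0 counts of MT-TM is not drawn. The heavy-strand mRNAs are lowest at 2.5 µM, MT-ND6 is lowest at 5 µM, and both rRNAs are lowest in controls.

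The rRNAs come first on the heavy-strand transcript. MT-RNR1 (ENSG00000211459) is the RNA of the small ribosomal subunit and MT-RNR2 (ENSG00000210082) that of the large subunit. MT-RNR1 had 742, 698, 809 and 641 CPM in controls, 3467, 2238, 3302 and 3125 CPM at 2.5 µM, and 4860, 3713, 3684 and 3943 CPM at 5 µM. The 3 groups did not overlap. Its log2 fold change was 2.07 ± 0.15 at 2.5 µM (adjusted p = 8.17e-07) and 2.49 ± 0.15 at 5 µM (adjusted p = 8.00e-08), a 4.20-fold and a 5.61-fold rise. It was also higher at 5 µM than at 2.5 µM (0.42 ± 0.15, adjusted p = 0.0268). The difference between doses missed the threshold in 3 of 22 alternatives, among them the run without 5 µM replicate 1 (adjusted p = 0.0672, with 0.00376 the lowest of the 22).

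MT-RNR2 had 11480, 9960, 11803 and 8493 CPM in controls, 23261, 17354, 22040 and 20403 CPM at 2.5 µM, and 19732, 16167, 16397 and 16959 CPM at 5 µM. Every treated library lay above every control, and the doses overlapped. The log2 fold change was 0.99 ± 0.12 at 2.5 µM (adjusted p = 3.37e-05) and 0.73 ± 0.12 at 5 µM (adjusted p = 0.000208). Between the doses it was -0.26 ± 0.12 and missed the threshold (adjusted p = 0.0769), but it passed in 4 of 22 alternatives: without control replicate 4 (0.0228), without 2.5 µM replicate 2 (0.0157), without 5 µM replicate 1 (0.03) and with the replicate block (0.0013, range over the 22 0.0013 to 0.229). The balance of the captured rRNA reads changed stepwise. There were 6.46, 7.01, 6.85 and 7.55 MT-RNR1 counts per 100 MT-RNR2 counts in controls, 14.9, 12.9, 15 and 15.3 at 2.5 µM, and 24.6, 23, 22.5 and 23.3 at 5 µM. In each library of a higher dose this ratio exceeded that of every library of a lower dose.

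The heavy-strand mRNAs fell at both doses, by different amounts. MT-ND5 (ENSG00000198786), MT-ND2 and MT-ND3, all core subunits of complex I (NADH dehydrogenase), had the lowest values at 2.5 µM against control, with log2 fold changes of -2.75 ± 0.09, -2.68 ± 0.07 and -2.60 ± 0.07. MT-ATP6 (-1.43 ± 0.06) and MT-ATP8 (-1.79 ± 0.10), subunits of the ATP synthase, MT-ND4 (-1.66 ± 0.06), of complex I, and MT-CO3 (-1.79 ± 0.05), of complex IV (cytochrome c oxidase), were at the other end. Adjusted p for the 13 mRNAs at this dose was between 5.49e-26 and 2.70e-09. With 5 µM the heavy-strand mRNAs ran from -1.98 ± 0.09 for MT-ND5 to -0.73 ± 0.06 for MT-ATP6, and adjusted p for all 13 was between 5.62e-24 and 1.78e-07. No heavy-strand mRNA overlapped between treated and control libraries at either dose, where 50.5% of all genes did not overlap at 2.5 µM and 70.8% did not at 5 µM.

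**Figure D3:**
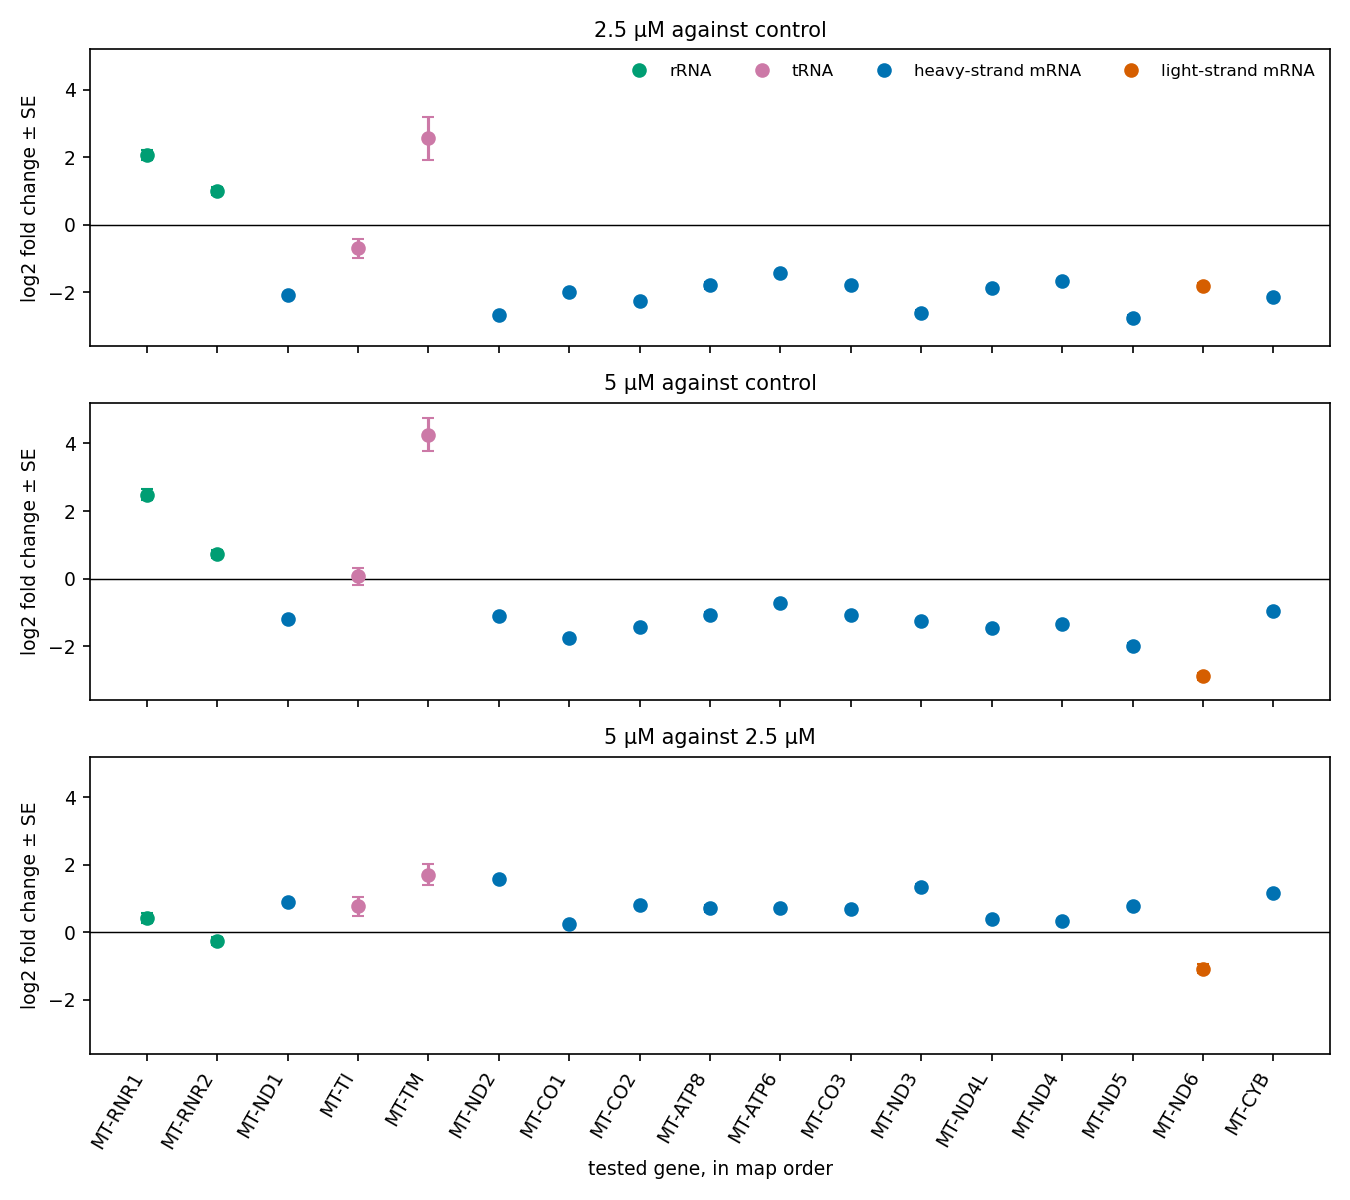
Log2 fold change ± SE of the 17 tested mitochondrial RNAs in map order, for 2.5 µM against control, 5 µM against control and 5 µM against 2.5 µM, coloured by class and transcript. All mRNAs lie below 0 at both doses, the rRNAs and MT-TM above 0, and in the panel of 5 µM against 2.5 µM MT-ND6 stands below 0 while the 12 heavy-strand mRNAs stand above.

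How far the mRNAs at 5 µM stood above 2.5 µM differed between neighbours. MT-ND2 (ENSG00000198763) had 1470, 1476, 1454 and 1422 CPM in controls, 234, 193, 261 and 220 CPM at 2.5 µM, and 701, 716, 662 and 620 CPM at 5 µM. The 3 groups were far apart, with 2.97-fold more at 5 µM than at 2.5 µM (log2 fold change 1.57 ± 0.07, adjusted p = 2.59e-15). The next mRNA on the map, MT-CO1 (ENSG00000198804), the catalytic subunit of complex IV, had 4488, 4188, 4399 and 3998 CPM in controls, 1081, 952, 1173 and 1073 CPM at 2.5 µM, and 1371, 1341, 1230 and 1138 CPM at 5 µM. Here the doses overlapped, and the difference between them was 1.19-fold (0.25 ± 0.06, adjusted p = 0.000734). Per 100 MT-CO1 counts there were 32.7 to 35.6 MT-ND2 counts in controls, 20.3 to 22.2 in the 2.5 µM libraries and 51.1 to 54.4 in the 5 µM libraries, so that this ratio was lowest at the middle dose and highest at the top dose.

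MT-ND3 (1.35 ± 0.07) and MT-CYB (1.17 ± 0.06), the cytochrome b of complex III, were nearest to MT-ND2 in their rise at 5 µM over 2.5 µM. MT-ND4 (0.32 ± 0.06) and MT-ND4L (0.39 ± 0.05) of complex I were nearest to MT-CO1. The other 6 heavy-strand mRNAs (MT-ND1, MT-ND5, MT-CO2, MT-CO3, MT-ATP8 and MT-ATP6) lay between 0.70 and 0.88. The 12 heavy-strand mRNAs all passed as higher, with adjusted p up to 0.000734, where 33.6% of all genes were higher. For 11 of the 12, all but MT-CO1, the doses did not overlap, against 62.1% of all genes tested.

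Position along the heavy strand was then set beside these changes. Across the 12 heavy-strand mRNAs, Spearman's rho between the distance of a gene from the start of the transcribed genes and its log2 fold change was 0.014 at 2.5 µM against control, -0.063 at 5 µM against control and -0.13 at 5 µM against 2.5 µM. With gene length it was -0.34, -0.38 and -0.077, and with the control level per kilobase 0.40, -0.23 and -0.48. These genes share their libraries and their precursor RNA, and the values are descriptions only.

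The share of each respiratory complex was computed from the same counts. Complex I mRNAs made 48.6 ± 1.31% of heavy-strand mRNA counts in controls, 49.0 ± 0.859% at 2.5 µM and 48.2 ± 1.07% at 5 µM, with overlapping ranges. Complex V mRNAs made 5.05 ± 0.33%, 6.97 ± 0.167% and 7.46 ± 0.283%, with both doses above every control. Complex III, the single mRNA MT-CYB, made 3.50 ± 0.263%, 3.07 ± 0.0643% and 4.51 ± 0.101%, and the 5 µM libraries were above the rest. Complex IV mRNAs made 42.8 ± 0.826% in controls, 40.9 ± 0.746% at 2.5 µM and 39.8 ± 1.16% at 5 µM, lower in every treated library than in any control.

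MT-ATP8 with MT-ATP6 and MT-ND4L with MT-ND4 are each known to be carried on one RNA, and their genes overlap by 46 and 7 bases in GENCODE 29. How the counting treated reads in these overlaps is not given in the sources used here. MT-ATP8 had 164, 190, 187 and 217 CPM in controls, 54.2, 47.2, 65.3 and 53.0 CPM at 2.5 µM, and 90.1, 100.3, 79.9 and 87.9 CPM at 5 µM. Per kilobase, MT-ATP8 stood at 0.569 ± 0.0506 of MT-ATP6 in controls, 0.446 ± 0.024 at 2.5 µM and 0.445 ± 0.02 at 5 µM. For MT-ND4L relative to MT-ND4 the same ratio was 0.623 ± 0.0331, 0.543 ± 0.0176 and 0.573 ± 0.0364. For the first pair both doses lay below every control, and for the second pair the 5 µM and control libraries overlapped.

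The order of levels per kilobase of gene changed most for MT-RNR1. In controls, MT-RNR2 led with 6693 ± 977 CPM per kilobase, followed by MT-CO2 (5243 ± 145) and MT-ND4 (4837 ± 312), which overlapped each other. MT-RNR1, at 757 ± 74.3, was thirteenth of the 15 rRNAs and mRNAs and overlapped with MT-CYB (779 ± 45.7) and MT-ND5 (684 ± 62.6). At 2.5 µM MT-RNR1 stood second with 3179 ± 574 CPM per kilobase, behind MT-RNR2 (13319 ± 1640) and ahead of MT-ND4 (1528 ± 96.1). At 5 µM it was again second with 4245 ± 579, ahead of MT-CO2 (1923 ± 64.0). MT-ND6 was last in all 3 groups.

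MT-ND6 (ENSG00000198695), a complex I subunit and the only mRNA of the light-strand transcript, was the exception in dose. It had 26.6, 31.1, 27.7 and 32.9 CPM in controls, 7.80, 8.93, 8.32 and 8.67 CPM at 2.5 µM, and 4.99, 4.12, 3.74 and 3.31 CPM at 5 µM. The groups did not overlap, and each dose lay below the one before. Its log2 fold change was -1.81 ± 0.10 at 2.5 µM (adjusted p = 4.01e-17) and -2.89 ± 0.11 at 5 µM (adjusted p = 8.01e-22), a 3.51-fold and a 7.43-fold fall. Between the doses it was -1.08 ± 0.13 (adjusted p = 7.72e-09), the only mRNA of the 13 to be lower there.

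Relative to the heavy-strand mRNAs, MT-ND6 stood lower at 5 µM. There were 1.03 to 1.33 MT-ND6 counts per 1000 heavy-strand mRNA counts in controls and 1.16 to 1.52 at 2.5 µM, which overlapped, and 0.352 to 0.468 at 5 µM, below both. Against its neighbour MT-ND5 on the opposite strand, MT-ND6 had 19.8 to 30.3 counts per 1000 in controls, 39.9 to 57.5 in the 2.5 µM libraries and 11.8 to 14.7 in the 5 µM libraries. This ratio was thus highest at 2.5 µM and lowest at 5 µM, with no overlap between groups. In base composition MT-ND6 also stood apart, with 35.6% G against 6.28% to 16.2% in the heavy-strand mRNAs. The strand setting of the counting is not given in the sources used here, so reads of MT-ND6 and of RNA from the opposite strand of its gene cannot be told apart with certainty.

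The ends of the mRNAs show how a tail enters the message. The last 30 bases of 4 genes are given 5′ to 3′ as transcribed, from the GENCODE 29 transcripts of GRCh38, with the stop codon or what the DNA holds of it in capitals. They lie on the mitochondrial chromosome at chrM:4233-4262 (plus strand) for MT-ND1, chrM:9961-9990 (plus) for MT-CO3, chrM:8240-8269 (plus) for MT-CO2 and chrM:14149-14178 (minus) for MT-ND6.
MT-ND1: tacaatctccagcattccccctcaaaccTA
MT-CO3: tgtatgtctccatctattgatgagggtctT
MT-CO2: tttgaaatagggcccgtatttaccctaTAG
MT-ND6: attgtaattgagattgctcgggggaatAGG
In 6 of the 13 mRNAs (MT-ND1, MT-ND2, MT-CO3, MT-ND3, MT-ND4 and MT-CYB) the gene as annotated ends within the last codon. Addition of A residues is known to complete that codon to UAA. These 6 had log2 fold changes of -2.68 to -1.66 at 2.5 µM and -1.34 to -0.97 at 5 µM against control. The other heavy-strand mRNAs ran from -2.75 to -1.43 and from -1.98 to -0.73, with MT-ATP6 at the upper end at both doses. Without MT-ATP6 their upper end was MT-ATP8, at -1.79 and -1.08. MT-ND4 (-1.66) at 2.5 µM and MT-CYB (-0.97) at 5 µM then lay above that range. MT-ND6 ends in a complete AGG.

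The tRNAs gave few counts, 636 over all 22 genes and 12 libraries. No count was found for 5 of them (MT-TN, MT-TC, MT-TK, MT-TG and MT-TR), and the other 17 had at most 31 counts in a library. Counts are summed over the 4 libraries of a group, and 95% intervals of their ratios (exact binomial, on the group totals without TMM scaling) cover counting error only. The 14 heavy-strand tRNAs had 37, 31, 32 and 31 counts in control libraries, 33, 31, 29 and 34 at 2.5 µM, and 65, 54, 57 and 76 at 5 µM. The 8 light-strand tRNAs had 13, 24, 20 and 19 counts in control libraries, 10, 11, 9 and 7 at 2.5 µM, and 2, 4, 1 and 6 at 5 µM. The summed ratio of 5 µM to control was 1.99 (1.60 to 2.47) for the heavy-strand tRNAs and 0.177 (0.0899 to 0.32) for the light-strand tRNAs. Without MT-TM, the heavy-strand ratio was 1.31 (1.03 to 1.66), but the tRNAs left did not move together. The TMM factors were 0.9405 to 0.9739 in controls and 1.048 to 1.061 at 5 µM, so with that scaling these ratios would be smaller. Whether the interval of 1.03 to 1.66 would then still lie above 1 was not tested. Of the tRNAs left, with 127 counts in controls and 161 at 5 µM, MT-TV had the largest gain, from 0 counts to 37. MT-TF and MT-TH also had more counts at 5 µM, with intervals that start at 1.73 and 1.76. MT-TL1 (interval 0.611 to 3.19), MT-TI (0.781 to 1.69), MT-TS2 (from 0.427) and MT-TL2 (from 0.194) had more counts too, but within counting error. MT-TT had fewer (36 to 8, interval 0.0921 to 0.502). MT-TW (11 to 4, 0.0872 to 1.27) and MT-TD (10 to 3, 0.0548 to 1.2) had fewer within counting error.

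**Figure D4:**
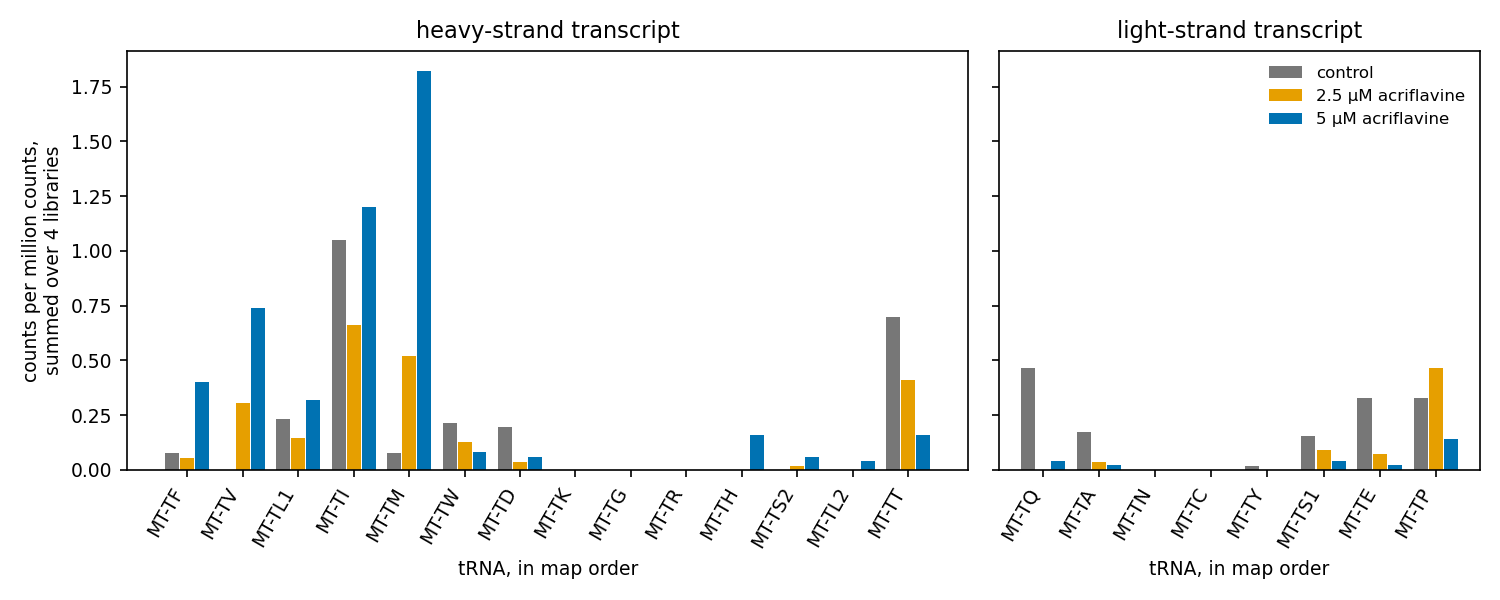
Counts of each of the 22 tRNAs, summed over the 4 libraries of a group and scaled to the group's total counts, in map order, for the heavy-strand and the light-strand transcript. MT-TM and MT-TV are highest at 5 µM, MT-TQ is highest in controls, and the light-strand tRNAs at 5 µM are all under those of the controls or at 0.

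In a cluster of 3 adjacent tRNA genes between MT-ND1 and MT-ND2, MT-TM was higher and MT-TQ lower at 5 µM than in controls, while MT-TI did not pass there. The cluster holds both tRNAs that could be tested. MT-TI carries isoleucine, MT-TQ glutamine and MT-TM methionine, and MT-TQ is on the light-strand transcript. Their sequences are shown 5′ to 3′ with the anticodon in capitals, from the GENCODE 29 transcripts of GRCh38, at chrM:4263-4331 (plus strand), chrM:4329-4400 (minus) and chrM:4402-4469 (plus). The first and second genes overlap by 3 bases on opposite strands.
MT-TI: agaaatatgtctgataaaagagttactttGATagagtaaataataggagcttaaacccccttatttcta
MT-TQ: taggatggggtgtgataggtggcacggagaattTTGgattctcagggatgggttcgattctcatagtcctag
MT-TM: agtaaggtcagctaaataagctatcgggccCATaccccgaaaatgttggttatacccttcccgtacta
MT-TM (ENSG00000210112) had 1, 0, 2 and 1 counts in control libraries, 9, 7, 4 and 9 at 2.5 µM, and 27, 11, 22 and 31 at 5 µM. The 3 groups did not overlap. Since it passed the low-count filter only through the 5 µM libraries, its values are given from the edgeR fit without that filter, over 30981 genes. There its log2 fold change was 2.57 ± 0.64 at 2.5 µM (adjusted p = 0.000271), 4.25 ± 0.49 at 5 µM (adjusted p = 1.84e-17) and 1.69 ± 0.32 at 5 µM against 2.5 µM (adjusted p = 5.38e-07). With only 4 control counts, the count ratio of 5 µM to control was 23.5 with an interval from 8.87 to 88.1.

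MT-TI had 11, 16, 14 and 13 counts in control libraries, 9, 10, 8 and 10 at 2.5 µM, and 13, 16, 16 and 15 at 5 µM. Its log2 fold change with 5 µM was 0.07 ± 0.26 (adjusted p = 0.83). MT-TI passed the low-count filter through the control and 5 µM libraries alone, so its comparisons with 2.5 µM are given from the fit without that filter. There its log2 fold change was -0.69 ± 0.33 at 2.5 µM against control (adjusted p = 0.102). Between the doses it was 0.75 ± 0.33 (adjusted p = 0.0502), so that MT-TI missed the threshold in both. With the filter these were -0.70 ± 0.29 (adjusted p = 0.0361) and 0.77 ± 0.28 (adjusted p = 0.0159). The call at 2.5 µM against control was lost in 10 of 21 alternatives, with a range of 0.0267 to 0.102. Among them were DESeq2 (0.0979) and the runs without 2.5 µM replicate 3 (0.0717) or control replicate 2 (0.0834). MT-TQ had 5, 7, 5 and 7 counts in control libraries, 0 in each at 2.5 µM, and 0, 1, 0 and 1 at 5 µM. With the control counts taken as exact, it was at least 8.68-fold lower at 2.5 µM than in controls, set against a floor of 3 counts over the group. The exact interval of the ratio, which also covers the counting error of the controls, ran from 0 to 0.153. At 5 µM, 2 counts against 24 in controls gave a ratio of 0.086 (0.00986 to 0.347).

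Of the other tRNAs, MT-TV (valine), which lies between the rRNA genes, had 0 counts in controls, 17 at 2.5 µM and 37 at 5 µM. With the treated counts taken as exact, this is at least 5.23-fold and at least 12.7-fold higher, set against the same floor of 3 counts over the group. The exact intervals of the ratios, which also cover the counting error of the treated groups, start at 3.8 for 2.5 µM and at 9.85 for 5 µM. MT-TF (phenylalanine), the first gene of the heavy-strand transcript, had 4 counts in controls, 3 at 2.5 µM and 20 at 5 µM. MT-TT (threonine), the last gene of that transcript, had 36, 23 and 8 counts in the same order of dose. On the light strand, MT-TE (glutamate), next to MT-ND6, had 17, 4 and 1 counts, MT-TA (alanine) 9, 2 and 1, and MT-TP (proline) 17, 26 and 7. The remaining tRNAs with counts (MT-TL1, MT-TW, MT-TD, MT-TS1, MT-TS2, MT-TL2, MT-TH and MT-TY) had at most 16 counts in a group.

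Without the filter on low counts, 17 tRNAs entered the edgeR fit of 30981 genes. At 5 µM against control, the heavy-strand tRNAs MT-TM, MT-TV, MT-TF and MT-TH passed as higher, and the light-strand tRNAs MT-TQ, MT-TE and MT-TA and the heavy-strand MT-TT as lower. In that fit 50.4% of all genes passed, 27.6% as higher and 22.8% as lower. The adjusted p was 1.01e-09 for MT-TV, 0.00924 for MT-TF, 0.00897 for MT-TH, 6.43e-05 for MT-TQ, 0.000433 for MT-TE, 0.027 for MT-TA and 9.74e-05 for MT-TT. With 2.5 µM, MT-TV and MT-TM passed as higher and MT-TQ and MT-TE as lower, where 32.6% of all genes passed, 17% as higher and 15.5% as lower. Between the doses, MT-TM, MT-TF, MT-TH and MT-TV were higher at 5 µM and MT-TP and MT-TT lower, where 42.4% of all genes passed, 22.8% as higher and 19.6% as lower. The values rest on few counts, and reads that run from an mRNA into a tRNA cannot be told from those of a free tRNA.

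Near-identical copies of mitochondrial genes lie in the nuclear genome and could share reads with the members. The table held 399 genes named as such copies, of which 353 had 0 counts, and 3 had enough counts to be tested. MTATP6P1, with 98.5% identity to MT-ATP6 over 681 aligned bases, averaged 188 ± 9.11 CPM in controls, 65.8 ± 7.48 CPM at 2.5 µM and 104 ± 6.90 CPM at 5 µM. Its counts were 15.3 to 17.6 per 100 MT-ATP6 counts in every library. MTCO1P12 (98.6% identity to MT-CO1) had 2.87 to 3.49 counts per 100 of MT-CO1, and MTND2P28 (98.4% identity to MT-ND2) 3.21 to 4.46 per 100 of MT-ND2. The copies followed their mitochondrial genes, with log2 fold changes at 5 µM against control of -0.86 ± 0.06, -1.89 ± 0.07 and -1.37 ± 0.08, beside -0.73, -1.75 and -1.11 for MT-ATP6, MT-CO1 and MT-ND2. At 2.5 µM against control they were -1.52, -2.1 and -2.90, beside -1.43, -2.0 and -2.68. How reads were divided between each pair is uncertain. MTND4P12 and MTRNR2L12, next in level, averaged 0.976 and 0.201 CPM in controls.

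Nuclear genes of the same organelle held calls in both directions. Of 76 nuclear-encoded subunits of the respiratory chain and ATP synthase, 26 were higher and 32 lower at 5 µM against control (median log2 fold change -0.02), and 15 were higher and 23 lower at 2.5 µM (-0.03). Of all genes tested, 38.7% were higher and 39.4% lower at 5 µM, and 30.7% higher and 28.5% lower at 2.5 µM. The smallest p at 5 µM was that of ATP5MC2, a subunit of the ATP synthase rotor (-1.69 ± 0.05, adjusted p = 2.36e-25). Of 75 tested mitochondrial ribosomal protein genes, 30 were higher and 31 lower at 5 µM (median -0.02), and 37 were higher and 16 lower at 2.5 µM (0.16). MRPL12, which also stands in the transcription list and had the smallest p of both at 5 µM, fell 2.35 ± 0.09 on the log2 scale to 8.29 ± 0.711 CPM, against 42.0 ± 1.83 CPM in controls. The median of the 13 mitochondrial mRNAs was -1.25 at 5 µM, as given above.

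Among the factors that act on mitochondrial DNA and RNA, POLRMT, the polymerase that transcribes both strands, averaged 73.8 ± 5.93 CPM in controls, 57.7 ± 3.89 CPM at 2.5 µM and 36.4 ± 1.48 CPM at 5 µM (log2 fold change at 5 µM -1.02 ± 0.07, adjusted p = 7.73e-16). The packaging and initiation factor TFAM rose at both doses (0.44 ± 0.07 at 2.5 µM and 0.47 ± 0.07 at 5 µM), and TFB2M, which opens promoters, rose at 5 µM (0.18 ± 0.07, adjusted p = 0.0151). LRPPRC, which with SLIRP stabilizes mitochondrial mRNAs, fell 0.18 ± 0.05 at 2.5 µM and 0.91 ± 0.05 at 5 µM, and SLIRP 0.22 ± 0.05 at 5 µM, on the log2 scale. The rRNA methylases were at 0.36 ± 0.08 (TFB1M, adjusted p = 9.23e-05) and -0.20 ± 0.07 (MRM2, adjusted p = 0.0103) at 5 µM. By list, where 78.2% of all genes passed at 5 µM and 59.1% at 2.5 µM, 5 of 10 transcription genes were higher and 5 lower at 5 µM, 3 of 10 replication genes higher and 7 lower (DNA2 -1.73 ± 0.10), 5 of 21 RNA processing and decay genes higher and 11 lower, and 7 of 20 rRNA modification and ribosome assembly genes higher and 11 lower (MTG1, a ribosome assembly GTPase, -2.34 ± 0.16). At 2.5 µM, where the mRNAs of the mitochondrial genome were lowest, the counts were 2 higher and 3 lower of 10, 1 and 7 of 10, 7 and 5 of 21, and 7 and 5 of 20.

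Within the members, log2 CPM of each heavy-strand mRNA over the 12 libraries had a Pearson r of 0.94 (MT-ND2) to 0.998 (MT-CO2) with the mean of the other mRNAs, and MT-ND6 one of 0.72. The values were -0.86 for MT-RNR1 and -0.92 for MT-RNR2. Nuclear genes among those most like the mean of the 13 mRNAs by this measure were MARVELD1 (r = 0.995), TOMM7 (0.989), PCK2 (0.989) and PIEZO1 (0.988), picked from all tested nuclear genes. MARVELD1 averaged 249 ± 16.2 CPM in controls, 63.1 ± 3.90 CPM at 2.5 µM and 94.1 ± 2.01 CPM at 5 µM, the same order of groups as the heavy-strand mRNAs. TOMM7, a small subunit of the import pore of the outer mitochondrial membrane, varied less, at 140 ± 1.99, 99.6 ± 1.79 and 112 ± 0.589 CPM. The 12 libraries form 3 groups, and the libraries of a group share its treatment.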

How the data were processed

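Poly-A RNA of 12 cultures was sequenced from strand-marked TruSeq libraries, per the labels' protocols. The authors deposited raw read counts for each Ensembl gene. Per the submitters' processing notes, the build was GRCh37, and featureCounts 1.4.6, STAR 2.4.1d and cutadapt 1.7.1 are among the tools named, with no roles. Not given in the sources used here are the strand setting, the annotation release and the handling of multi-mapping and overlapping reads, so reads of opposite strands cannot be told apart with certainty, which touches MT-ND6 and the light-strand tRNAs. Symbols, gene lengths and sequences came from GENCODE 29 (GRCh38). The coordinates printed are those of that annotation, not of the counts. Of 63152 genes, 51989 had a symbol.

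The 16839 genes passing filterByExpr entered edgeR 4.0.16 (R 4.3.3): TMM, robust glmQLFit and glmQLFTest, 12 libraries in 1 fit with 3 groups and 9 residual degrees of freedom. The SE is the absolute log2 fold change divided by the square root of F and can be too small at few counts. The edgeR steps were also run on simulated counts in which few genes changed, whereas 78.2% of genes passed at 5 µM against control in the data. That run cannot show how the steps behave under such wide change. Alternatives were other scalings, scaling by nuclear genes only, other filters, DESeq2 1.42.0, the 2 compared groups alone, a replicate block, each library left out and, added after the data were seen, nuclear copies added to their mitochondrial genes. The labels give replicate numbers but no shared culture, day or batch, so the main fit had no replicate block. Same-numbered libraries correlated weakly (-0.13 to 0.07), which cannot exclude a shared culture or batch.

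The members and lists were chosen with earlier results of these data known. Named were all 37 members, the 5 highest nuclear copies, 7 machinery genes, the gene with the smallest p of each list at 5 µM, and the 5 nuclear genes most like the 13 mRNAs, of which 1 is not reported here. The intervals of count ratios rest on sums over the 4 libraries of a group, so they cover counting error only and not the spread between libraries. Libraries carried no molecular identifiers, so this is the counting error of reads, not of molecules. Library totals were 10733567 to 15116842 counts.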

Additional observations from a re-analysis of the deposited data

Results flagged for a closer look

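In 3 of 72 groups of 4 values examined (levels of the 17 tested genes, sums and ratios), 1 library stood far from the other 3, where chance gives about 1 in 20. MT-CO3 was at 747 CPM in 2.5 µM replicate 2, against 906 to 920 CPM in the other libraries of that dose. MT-ND3 was at 198 CPM in 5 µM replicate 3, against 184 to 186 CPM in the others. The 37 genes took 3.69% of counts in 5 µM replicate 1, against 3.11% to 3.21% in the others.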

How the results depend on the processing

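Of 51 log2 fold changes of mitochondrial genes (17 genes, 3 comparisons), 46 kept their direction and their side of the threshold under every alternative in which they could be tested, and the other 5 were those of MT-TI in each comparison and of MT-RNR1 and MT-RNR2 at 5 µM against 2.5 µM. The value of MT-TI at 5 µM against control, near 0, turned to -0.044 without control replicate 1 and to -0.024 without 5 µM replicate 2, with 0.17 the highest when a single library was left out. With library size alone, the median of the 13 mRNAs was -1.12 at 5 µM against control and 0.80 at 5 µM against 2.5 µM, and the median of all genes at 5 µM against control moved to 0.12. Without the low count filter, 6 members (3 with it, MT-TM included) were higher at 5 µM against control and 3 (1 with it) lower at 5 µM against 2.5 µM, since more tRNAs were tested. At 5 µM against 2.5 µM the count of lower members was 1 to 2 when single libraries were left out, with 2 (MT-ND6 and MT-RNR2) without control replicate 4, 2.5 µM replicate 2 or 5 µM replicate 1; the cause was not tested. With a minimum count of 50, MT-TI and MT-TM were not tested. The replicate block gave 2 lower members at 5 µM against 2.5 µM and changed no other count beyond 1.5 times. Same-numbered libraries correlated at -0.13 to 0.07 in their deviations from group means, and 4, 0 and 0 of 8 libraries were closest to their own number at 5 µM against control, 2.5 µM against control and 5 µM against 2.5 µM. Low counts limit the tRNAs most.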
